A study of Mus musculus with 6 samples.

Results

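The 32 genes described here encode the digestive enzymes of the exocrine pancreas, with their cofactor, inhibitor, zymogen granule proteins and acinar transcription factors. They were chosen by name from a list, without a filter on expression, and all 32 of 32 had a row among the 23235 gene names of the series; the amylase gene Amy2a5 had 4 rows, so the members occupied 35 of 23699 rows. RNA had been sequenced from the duodenum of mice aged 6 weeks and of mixed background, cut as the 2 cm nearest the stomach. The 3 mutants were Nkx2.2flox/flox with Villin-Cre/+, a Cre driven by the villin promoter of the gut epithelium, and mutant 3 also carried Rosa26Tomato/+. The 3 controls were Nkx2.2flox/+ and so carried 1 floxed allele. No group label says that each library is a separate animal, so the p-values measure only the spread between these libraries.

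Acinar cells of the pancreas make inactive precursors of proteases together with lipases, amylase and ribonuclease, pack them in zymogen granules and release them through the pancreatic duct into the duodenum. There enteropeptidase of the duodenal brush border cuts trypsinogen to trypsin, which activates the other precursors. The hormones cholecystokinin and secretin of duodenal endocrine cells drive this secretion, and the factors Ptf1a, Rbpjl and Bhlha15 (Mist1) keep the acinar programme. The pancreas lies against the duodenum, and acinar cells are not a cell type of the duodenal wall.

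The duodenal label fitted the high levels of enterocyte markers: Fabp2, a fatty acid binding protein, lay at 6232, 9426 and 2923 FPKM (fragments scaled to transcript length and library size) in mutants 1 to 3 and at 7364, 6103 and 2992 FPKM in controls 1 to 3. The acinar markers were present in every library as well. The floxed gene itself, Nkx2-2, lay at 1.10, 0.736 and 0.221 FPKM in mutants 1 to 3 and at 1.13, 1.32 and 0.779 FPKM in controls 1 to 3, so mutant 1 was not apart from the controls. With the 4 amylase rows included, the members took 1.67%, 1.08% and 0.383% of the reads rebuilt from coverage in mutants 1 to 3, against 2.57%, 2.49% and 1.59% in controls 1 to 3. The depth estimated from the files was 20.9 to 26.1 M fragments per library, so that Ctrb1 rests on 67811 rebuilt reads in the mean control and Ptf1a on 20.2.

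The trypsinogens lie on mouse chromosome 6, where the 8 members span 40914771 to 41475078 (mm9), and they differ so little that short reads can fit several of them. The coding starts below are shown because this likeness limits what each trypsinogen value means. They are coding bases 1 to 100 from the GENCODE M1 transcripts of the NCBIM37 (mm9) genome, with capitals for bases that differ from Try4.
Try4: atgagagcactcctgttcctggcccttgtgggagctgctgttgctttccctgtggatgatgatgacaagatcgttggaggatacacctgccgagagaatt
Try5: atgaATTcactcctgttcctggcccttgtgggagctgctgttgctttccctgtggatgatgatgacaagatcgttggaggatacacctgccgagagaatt
Try10: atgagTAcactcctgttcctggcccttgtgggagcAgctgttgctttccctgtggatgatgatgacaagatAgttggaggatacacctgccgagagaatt
Prss1: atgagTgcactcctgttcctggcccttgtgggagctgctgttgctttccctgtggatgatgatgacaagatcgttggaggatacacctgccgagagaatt
Prss2: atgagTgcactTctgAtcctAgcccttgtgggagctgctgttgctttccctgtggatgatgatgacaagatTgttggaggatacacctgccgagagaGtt
Prss3: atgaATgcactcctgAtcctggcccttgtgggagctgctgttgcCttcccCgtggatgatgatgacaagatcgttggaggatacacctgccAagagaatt

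Within these 100 bases Try5 differed from Try4 at 3 positions, Try10 at 4, Prss1 at 1, and Prss2 and Prss3 at 6 each. All 6 carried gatgatgatgacaag at coding base 55, a stretch that encodes the acidic site cut by enteropeptidase. Over the coding sequence of 741 bases, identity to Try4 was 97.4% for Try5, 95.4% for Try10, 93.4% for Prss1, 92.4% for Prss3 and 91.6% for Prss2. Prss1 and Prss3 shared 96.4% with each other. The counting of these genes is described after the levels.

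The main comparison asked how the pancreatic transcripts differed between mutant and control duodenum. Most members lay lower in the mutants, by a median log2 change of -1.36 over all 32 members without a filter, against -0.01 over all 18816 genes in that fit. Of the 32 members 29 had a negative change, where 54.8% of all genes did, and 24 a log2 change of -1 or lower, against 0.654% of all genes. Changes are mutant minus control on the log2(FPKM + 0.5) scale, which understates those of low genes. None passed in limma with Benjamini-Hochberg adjustment over the 13596 genes with at least 0.5 FPKM in 3 libraries: 0 of 31 tested members were called (background 0.0221%), and their smallest adjusted p was 0.179, for a gene that passed the filter through the controls alone. With the replicate number as a block it was again 0 of 31 (background 0.0956% lower and 0.0662% higher). At an unadjusted p under 0.05, 15 of the 31 were lower (background 1.63%) and 0 higher (background 1.8%). Ptf1a was the member not tested, and 2 trypsinogen-family members passed the filter through the controls alone.

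In 17 of the 32 members all mutants lay below all controls, where this held for 3.99% of all genes without a filter, and in 0 did all mutants lie above them (background 4.11%). The other 15 overlapped, and in 10 of them (Prss3, Ctrl, Cela1, Cela2a, Cpa1, Pnlip, Clps, Amy2a5, Sycn and Gp2) the mutant was below the control of the same number in every pair. Over all members this held for 27 of 32 (background 13.2%). Among the 31 tested members 16 did not overlap (background 3.71%), and 25 without mutant 1 (background 6.54%). The mutants were unequal: mutant 3 held the lowest value of all 6 libraries in 25 members. Relative to the control mean, the median member lay at 0.697, 0.499 and 0.162 of it in mutants 1 to 3, and at 1.25, 1.11 and 0.801 in controls 1 to 3. Mutant 1 was below control 3 in 19 members and above it in 13. Bulk RNA cannot separate fewer acinar cells in a piece from less RNA in each cell. The number of acinar cells also depends on how much adjoining pancreas was cut with each piece. None of this was tested.

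**Figure D1:**
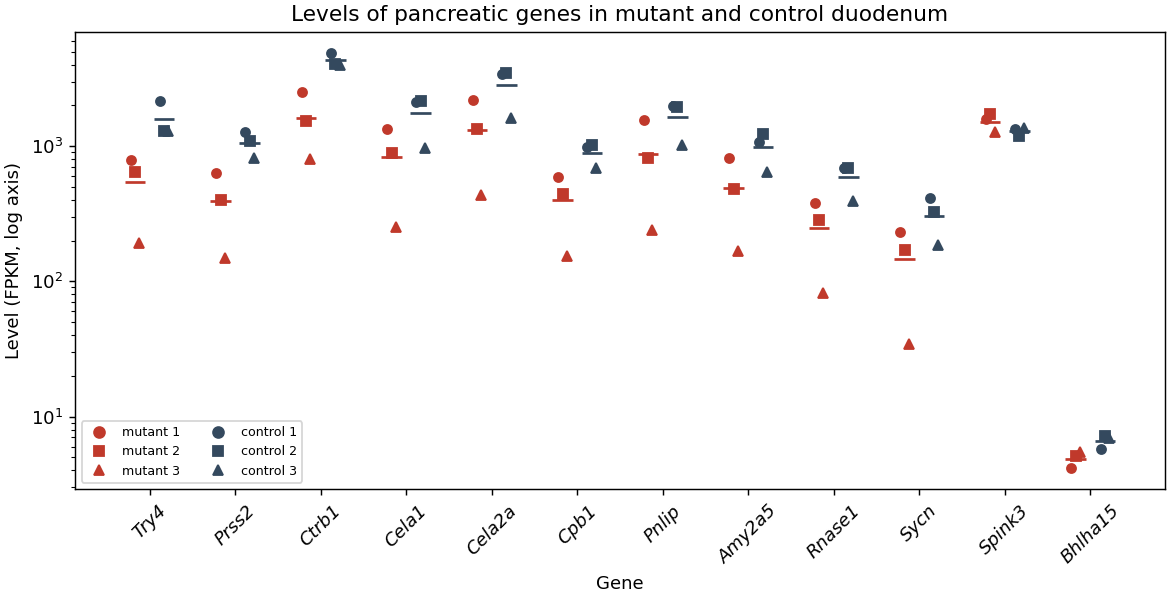
Levels in FPKM on a log axis of 12 members, among them the most abundant of each class, with mutants (red, left) beside controls (dark, right), 1 symbol per library number and a bar at the mean of 3. Mutant 3 is the lowest library for most genes shown, while Spink3 lies at 1264 to 1714 FPKM in mutants and 1190 to 1372 FPKM in controls.

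Ctrb1, a chymotrypsinogen, had the highest mean of the members in both groups, although Spink3 exceeded it in mutants 2 and 3. It lay at 2496, 1544 and 804 FPKM in mutants 1 to 3, against 4879, 4059 and 3982 FPKM in controls 1 to 3. All mutants were below all controls. Its log2 change was -1.56 ± 0.39 (SE, n = 3 each; limma adjusted p = 0.999, unadjusted p = 0.0050). In the authors' deposited table Ctrb1 (chromosome 8, 114210410 to 114214910, mm9) had mean normalized counts of 25094 in mutants and 65176 in controls, and its adjusted p of 0.0182 made it the only member of 32 past 0.05 there (background 0.0914% lower and 0.0484% higher among 18605 genes).

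Ctrl, another chymotrypsin-like protease, lay at 487, 291 and 87.8 FPKM in mutants 1 to 3 and at 768, 760 and 382 FPKM in controls 1 to 3. Here mutant 1 lay above control 3, so the groups overlapped.

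Elastases are proteases as well. Cela1 (chromosome 15, 100504853 to 100518351, mm9) had 1334, 883 and 253 FPKM in mutants 1 to 3, against 2124, 2150 and 974 FPKM in controls 1 to 3. Cela2a, the most abundant elastase, lay at 2182, 1348 and 433 FPKM in mutants and 3389, 3452 and 1616 FPKM in controls 1 to 3. For both genes mutant 1 exceeded control 3, and their log2 changes were -1.30 ± 0.68 and -1.30 ± 0.65 (SE). Cela3b did not overlap, at 370, 271 and 90.1 FPKM in mutants and 777, 691 and 434 FPKM in controls.

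Try4 had the highest level of the trypsinogens, and Prss2 is the abundant one with no shared window of 100 bases. Try4 lay at 784, 649 and 191 FPKM in mutants 1 to 3, against 2172, 1302 and 1301 FPKM in controls 1 to 3. Prss2 lay at 632, 397 and 149 FPKM in mutants, against 1279, 1084 and 814 FPKM in controls. In both, every mutant was below every control, and the log2 changes were -1.75 ± 0.57 and -1.64 ± 0.53 (SE; limma adjusted p = 0.999 each). Try5 (368 ± 223 FPKM in mutants and 1115 ± 353 FPKM in controls, SD, n = 3 each) and Try10 (9.65 ± 4.999 and 28.6 ± 8.37 FPKM) did not overlap either.

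The carboxypeptidases trim protein ends after the endopeptidases have cut. Cpa1 lay at 520, 347 and 106 FPKM in mutants 1 to 3, against 870, 783 and 496 FPKM in controls 1 to 3. Cpb1 lay at 594, 443 and 154 FPKM in mutants, against 984, 1019 and 683 FPKM in controls. Only Cpb1 of this pair had groups apart. Cpb1 stood at 114%, 128% and 145% of Cpa1 in mutants and 113%, 130% and 138% in controls.

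Pancreatic lipases split dietary fat. Pnlip, the triglyceride lipase (chromosome 19, 58744855 to 58756278, mm9), had 1569, 810 and 238 FPKM in mutants 1 to 3, against 1967, 1930 and 1021 FPKM in controls 1 to 3. Its log2 change was -1.23 ± 0.72 (SE), and mutant 1 lay within the controls. Clps, the colipase that anchors Pnlip on fat droplets, was at 1450, 1256 and 357 FPKM in mutants and 1704, 1692 and 1131 FPKM in controls. The ratio of Clps to Pnlip was 92.4%, 155% and 150% in mutants, against 86.6%, 87.7% and 110.8% in controls. Cel, the bile salt-stimulated lipase (222 ± 134 FPKM in mutants and 496 ± 89.4 FPKM in controls), Pla2g1b, a phospholipase (61.9 ± 34.5 and 182 ± 46.7 FPKM), and Pnliprp1, a lipase-related protein (229 ± 139 and 498 ± 105 FPKM), had no overlap (SD, n = 3 each).

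Pnliprp2, a lipase that also cleaves phospholipids and galactolipids, took the opposite course in part of the mutants. It lay at 225, 272 and 24.2 FPKM in mutants 1 to 3, against 120, 127 and 95.3 FPKM in controls 1 to 3. Mutants 1 and 2 were thus above every control and mutant 3 below every control, and the log2 change of 0.01 ± 1.01 (SE) hides this split. Against its neighbour Pnliprp1 it stood at 61.0%, 119% and 26.8% in mutants, where controls held 24.0%, 21.2% and 24.3%. Without both libraries numbered 3, a setting chosen after seeing the data, its log2 change was 0.997 (limma adjusted p = 0.00316), one of 7 members called there. Without mutant 3 alone it was 1.12 (limma adjusted p = 0.0545), and the adjusted p was higher under every other setting run. The other 6, Cela3b, Cpb1, Cuzd1, Pla2g1b, Rnase1 and Try10, were lower (background 0.362% lower and 1.04% higher).

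Amylase cuts starch. The Amy2a5 copy at 113052096 to 113061617 on chromosome 3 (mm9) had 821, 478 and 169 FPKM in mutants 1 to 3, against 1064, 1233 and 643 FPKM in controls 1 to 3. The other 3 copies had nearly the same values but carried the Cufflinks status LOWDATA in every library. Amy1, the amylase known from salivary gland and liver, lay at 1.24, 2.82 and 1.13 FPKM in mutants and 1.19, 1.92 and 0.740 FPKM in controls. It showed no drop in mutant 3. Rnase1, the pancreatic ribonuclease, lay at 380, 285 and 82.6 FPKM in mutants, all below the 684, 684 and 395 FPKM of controls.

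Of the zymogen granule proteins, Sycn (syncollin) lay at 233, 171 and 34.4 FPKM in mutants 1 to 3, against 410, 325 and 185 FPKM in controls 1 to 3. Gp2, the major glycoprotein of granule membranes and also a marker of M cells, averaged 46.3 ± 31.1 FPKM in mutants and 92.5 ± 26.2 FPKM in controls. Cuzd1 averaged 7.56 ± 4.30 FPKM in mutants and 19.6 ± 4.94 FPKM in controls (SD, n = 3 each). Only Cuzd1 of these did not overlap.

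Spink3, the secreted trypsin inhibitor, did not follow the enzymes. It lay at 1579, 1714 and 1264 FPKM in mutants 1 to 3, against 1347, 1190 and 1372 FPKM in controls 1 to 3, a log2 change of 0.21 ± 0.18 (SE; limma adjusted p = 0.999). Its level was 250%, 432% and 849% of that of Prss2 in mutants, and 105%, 110% and 168% in controls. Across the 6 libraries Spink3 ranged over 0.53 on the log2 scale, where Prss2 ranged over 3.10. Bulk RNA does not show which cells made the Spink3 transcripts, so these ratios may not hold within acinar cells.

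The acinar transcription factors were low. Ptf1a, the basic helix-loop-helix factor of acinar cells, lay at 0.253, 0.129 and 0.184 FPKM in mutants 1 to 3, on 7.0, 4.0 and 5.0 rebuilt reads, and at 0.382, 1.03 and 0.683 FPKM in controls 1 to 3, on 12.9, 28.9 and 18.9 reads. Rbpjl, its partner in the PTF1 complex, lay at 1.29, 0.856 and 0.224 FPKM in mutants, against 1.69, 2.08 and 1.78 FPKM in controls. Bhlha15, also made by plasma cells and gastric chief cells, lay at 4.14, 5.09 and 5.43 FPKM in mutants, against 5.80, 7.14 and 6.92 FPKM in controls. All 3 had groups apart, but Bhlha15 was highest of the mutants in mutant 3, where the enzymes were lowest. Its log2 change was -0.41 ± 0.14 and that of Rbpjl -0.96 ± 0.32 (SE; limma adjusted p = 0.999 each).

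By class, the mutant mean of the summed FPKM was 0.344 of the control mean for the trypsinogens, 0.392 for the chymotrypsinogens, 0.424 for the ribonuclease, 0.447 for the carboxypeptidases and 0.459 for the elastases. It was 0.478 for the granule proteins, 0.5004 for the amylases (1 copy of Amy2a5), 0.581 for the lipases with colipase, 0.640 for the transcription factors and 1.17 for the inhibitor. As shares of the members' total, the inhibitor made up 9.10%, 14.0% and 26.2% in mutants 1 to 3 and 4.84%, 4.78% and 7.73% in controls 1 to 3. All mutants were above all controls in this share, which lowers the shares of the enzymes. With the inhibitor left out of the total, an alternative chosen after seeing the data, trypsinogens made up 12.6%, 14.7% and 13.0% in mutants and 19.3%, 14.2% and 19.2% in controls. Mutant 2 was above control 2 there, so the groups overlapped, whereas they lay apart with the inhibitor in the total (9.60% to 12.6% in mutants and 13.5% to 18.4% in controls). The chymotrypsinogens and carboxypeptidases likewise lay apart, with mutants lower, only with the inhibitor in the total. Lipases and colipase made up 25.7%, 27.2% and 23.0% in mutants and 19.2%, 21.3% and 19.4% in controls without the inhibitor, where all mutants were above all controls. With the inhibitor in the total their groups overlapped, and no class share was tested.

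To see which members moved in proportion, each profile over the 6 libraries was centred and set against the mean profile of Ctrb1, Cela1 and Pnlip (members themselves), with the root mean square difference on the log2 scale as distance. Cpa1 was nearest, at 0.064, and 14 members lay within 0.25, a limit chosen after seeing the values. The nearest after Cpa1 were Cel at 0.107, Ctrl and Amy2a5 at 0.116, and Rnase1 at 0.117. The farthest were Ctrc at 2.42, Prss1 at 1.72, 1810009J06Rik at 1.25, Gm2663 at 1.14, Prss3 at 1.10 and Amy1 at 1.07. Ctrb1 itself lay at 0.297, outside that limit, although it helps to define the profile. Cela2a stood at 87.4%, 87.4% and 53.9% of Ctrb1 in mutants 1 to 3, and at 69.5%, 85.0% and 40.6% in controls 1 to 3. Pnlip stood at 62.9%, 52.5% and 29.6% of Ctrb1 in mutants, and at 40.3%, 47.5% and 25.7% in controls. Prss2 stood at 25.3%, 25.7% and 18.5% of it in mutants, and at 26.2%, 26.7% and 20.5% in controls. Both libraries numbered 3 thus held less of each of these enzymes for their Ctrb1, not of the elastase alone.

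**Figure D2:**
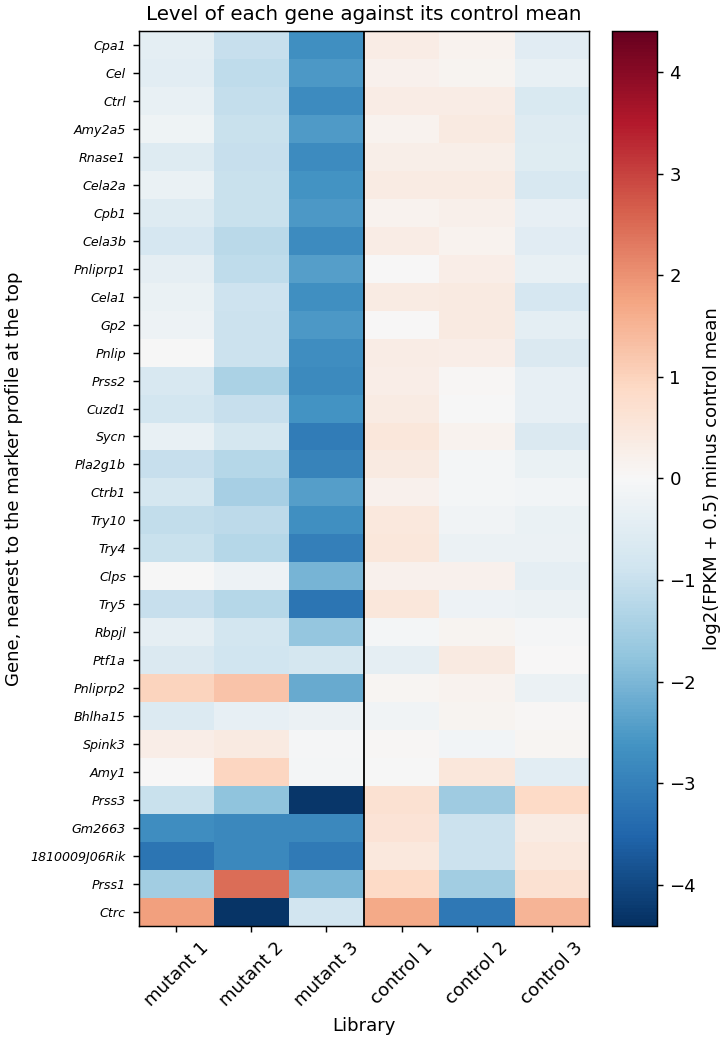
Colour gives log2(FPKM + 0.5) minus the control mean for each of the 32 members in each library, mutants left of the black line and controls right, with genes ordered by their distance from the mean profile of Ctrb1, Cela1 and Pnlip. Most rows pass from pale blue in mutant 1 to deep blue in mutant 3, while Ctrc, Prss1 and Prss3 at the bottom split the libraries of each group.

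Ctrc, chymotrypsin C, which in humans degrades trypsinogen, had the widest range of all members over the 6 libraries, 6.12 on the log2 scale. It lay at 210, 2.53 and 33.2 FPKM in mutants 1 to 3, against 191, 6.33 and 170 FPKM in controls 1 to 3. Mutant 2 and control 2 were low, on 44.8 and 102.5 rebuilt reads, and the other 4 libraries held 518 to 3722. Its neighbour Cela2a, which ends 12236 bases away on chromosome 4, was not low in these 2 libraries. Ctrc was 9.64%, 0.188% and 7.67% of Cela2a in mutants and 5.63%, 0.183% and 10.5% in controls. Ctrc (141394155 to 141402274, mm9) is a transcribed pseudogene in RefSeq's GRCm38.p6 annotation and protein coding in GENCODE M1. Without mutant 2 its log2 change was 0.48, against -1.12 ± 2.17 (SE) with all libraries.

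Some trypsinogens also differed between libraries of a group. Prss3 lay at 25.8, 15.0 and 2.20 FPKM in mutants 1 to 3, against 83.9, 17.3 and 95.9 FPKM in controls 1 to 3, so that control 2 stood near mutants 1 and 2. Prss1 lay at 0.868, 21.3 and 0.467 FPKM in mutants, against 6.68, 0.846 and 5.74 FPKM in controls. Mutant 2 was thus the highest and control 2 lay with mutants 1 and 3. Set against Prss2, Prss1 was 0.137%, 5.36% and 0.314% in mutants and 0.522%, 0.0780% and 0.705% in controls.

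The members 1810009J06Rik and Gm2663 of the trypsinogen cluster had almost no reads in any mutant. Each shared 68.7% of its windows of 100 bases with the other, so their reads cannot be told fully apart and their values are not independent. Rebuilt reads of 1810009J06Rik were 0, 2.24 and 0.498 in mutants 1 to 3, against 101, 26.9 and 81.6 in controls 1 to 3. Those of Gm2663 were 0.996, 0.498 and 0.498 in mutants, against 91.6, 20.9 and 61.7 in controls. Control 2 was the lowest control for both, as it was for Prss1 and Prss3, which also shared windows with each other. 1810009J06Rik and Gm2663 are the 2 members that passed the filter through the controls alone, which favours a small p (limma adjusted p = 0.179 and 0.256). Without the filter the limma adjusted p was 0.272 for both. Their size cannot be stated as a fold, and in the authors' deposited table their mean normalized counts were 0.336 and 0.358 in mutants, and 21.8 and 10.01 in controls, with adjusted p-values of 0.0863 and 1.

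**Figure D3:**
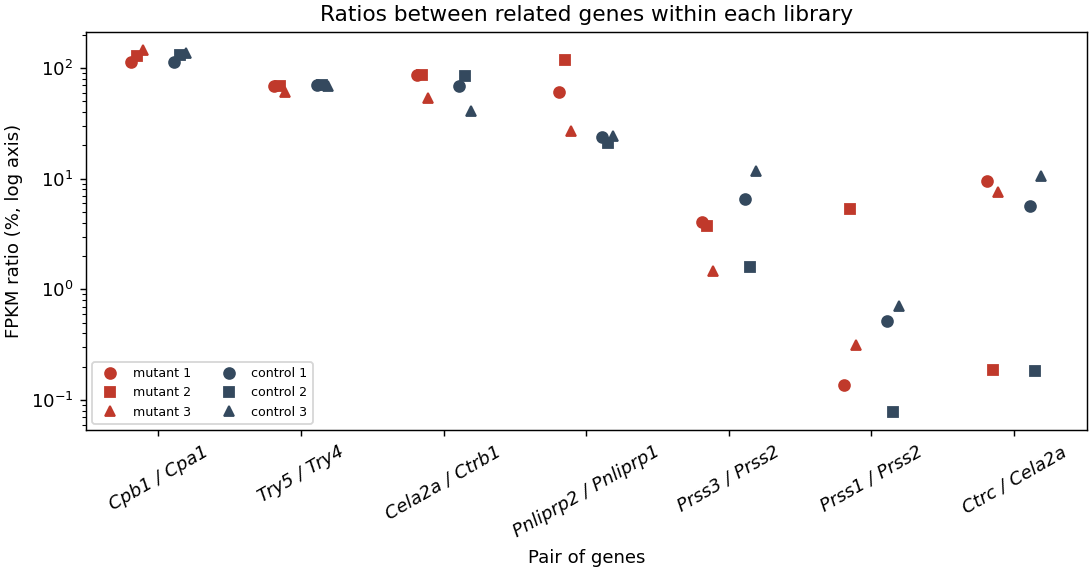
FPKM of the first gene as a percentage of the second within each library, on a log axis, with mutants (red) left of controls (dark). Cpb1 over Cpa1 stays at 113% to 145%, whereas Ctrc over Cela2a is near 0.19% in mutant 2 and 0.18% in control 2 and 5.63% to 10.5% in the other libraries.

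The FPKM and the authors' counts were compared next, since reads of near-identical genes can be assigned in several ways. For genes with no 100-base window in another gene's transcript, the authors' control mean of normalized counts was close to the rebuilt reads: 96.1% for Ctrb1, 95.7% for Cela1, 94.9% for Pnlip and 103% for Prss2. It was 56.4% for Try4, 39.7% for Try5, 72.4% for Try10 and 70.2% for Prss3. These genes share 30.2%, 22.8%, 6.19% and 46.4% of their windows with other genes. For Gm2663, with 68.7% shared, it was 17.2%. For Amy2a5, whose windows all recur in Amy2a1 to Amy2a4, it was 0.0322% of the reads over all 4 rows, and the authors' table lists it at 67.6 mean normalized counts in mutants and 40.0 in controls, a log2 fold change of 0.76. The FPKM of the same gene had a log2 change of -1.22 ± 0.61 (SE), so that the sign for Amy2a5 differed between the 2 kinds of deposited value. With so few of its reads counted, the authors' value is little ground for a direction. Neither direction passed a test. Amy1, with no shared window, stood at 435%, with log2 changes of -0.54 in the authors' table and 0.30 ± 0.35 (SE) in FPKM.

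**Figure D4:**
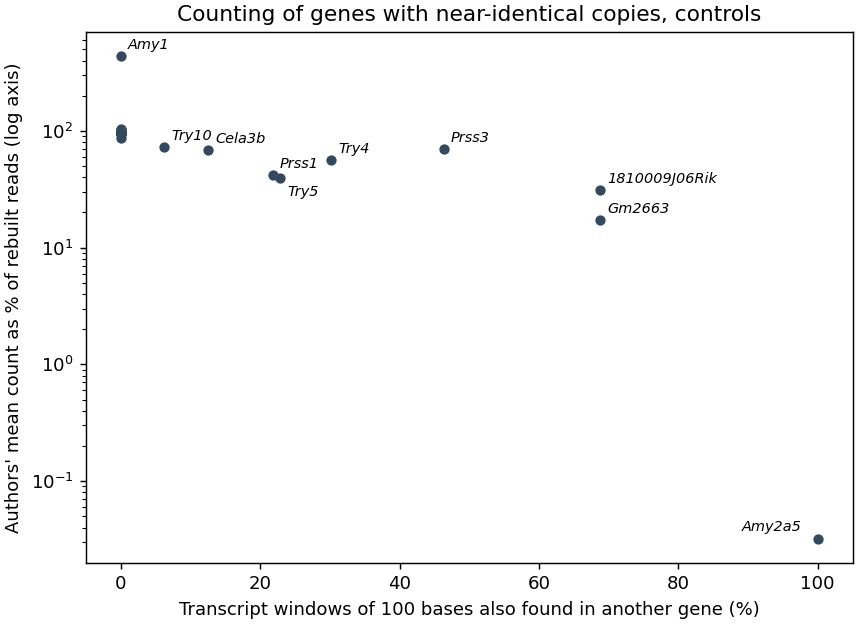
The authors' mean normalized count in controls as a percentage of the reads rebuilt from coverage (log axis) against the percentage of a gene's 100-base transcript windows that also occur in another gene, 1 point per member. Genes without shared windows lie at 86.8% to 103% apart from Amy1 at 435%, and Amy2a5, with all windows shared, lies at 0.0322%.

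Of the 32 members 28 in the authors' deposited table had a negative log2 fold change, where 49.3% of all its genes did. The other 4 had a positive one, namely Prss1, Pnliprp2, Spink3 and Amy2a5, the last on 0.0322% of its rebuilt reads in controls. At an unadjusted p under 0.05, 20 were lower (background 1%).

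The promoters of all members in the RefSeq table, whether or not they moved together, were read for the 2 parts of a PTF1 site, an E-box (CANNTG, palindromic) and a TC-box (TTTCCC, both strands). Of the members 26 had a promoter there (GRCm38.p6, 250 bases before to 50 after the start). Bases -220 to -1 of 3 of them are shown in the direction of the gene, with capitals for an E-box and a TC-box at most 30 bases apart.
Ctrb1, chr8:111691011-111691230, minus strand: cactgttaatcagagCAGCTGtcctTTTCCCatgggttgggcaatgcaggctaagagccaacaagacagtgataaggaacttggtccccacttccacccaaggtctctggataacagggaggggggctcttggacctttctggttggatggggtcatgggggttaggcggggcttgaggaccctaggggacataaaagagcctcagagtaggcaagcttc
Cela1, chr15:100687921-100688140, minus strand: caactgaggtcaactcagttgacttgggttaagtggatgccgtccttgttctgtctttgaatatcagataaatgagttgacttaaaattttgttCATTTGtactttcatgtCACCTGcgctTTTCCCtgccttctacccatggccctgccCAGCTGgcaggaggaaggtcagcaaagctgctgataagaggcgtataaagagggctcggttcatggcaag
Cela2a, chr4:141826006-141826225, minus strand: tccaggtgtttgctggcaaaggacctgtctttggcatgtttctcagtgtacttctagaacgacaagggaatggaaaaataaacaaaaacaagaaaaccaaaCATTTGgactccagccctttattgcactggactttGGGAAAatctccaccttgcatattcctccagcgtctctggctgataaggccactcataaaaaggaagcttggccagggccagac

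Such a pair was present in 6 of 27 member promoters (22.2%), those of Cel, Cela1, Cela2a, Cpa1, Ctrb1 and Prss1, against 6.51% of 32851 promoters. CANNTG alone occurred in 77.8% of member promoters and 72.3% of all, and TTTCCC alone in 33.3% and 25.2%. These are matches of letters and no binding was measured. The promoter of Pnlip held neither motif in this window. Whether these motifs bear on the levels was not tested.

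Outside the members, 10 tested genes were most like the 3 markers among 696 with a log2 range of at least 1.5. Genes named as predicted models, RIKEN clones or small RNAs were left out. This removed 2210010C04Rik, one of the other acinar genes below, at a distance of 0.153. The 10 included, from the nearest, Pdia2, Cabp2, Aqp12, Amy2b, Cckar, Klk1b5, Erp27, Slc38a5 and Amy2a2, at distances of 0.0838 to 0.395 over 6 libraries. Pdia2, the pancreatic protein disulphide isomerase, lay at 24.5, 14.5 and 4.52 FPKM in mutants 1 to 3, against 36.3, 30.8 and 21.6 FPKM in controls 1 to 3. Cckar, the receptor for cholecystokinin, lay at 2.52, 1.84 and 0.597 FPKM in mutants, against 3.78, 5.21 and 2.93 FPKM in controls. Mutant 3 was again the lowest for both genes, and neither passed in limma (adjusted p = 0.999).

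Of 12 other acinar genes 0 passed (background 0.0221%), and all 12 had a negative change (median -0.95), where 54.8% of all genes without a filter did. In 2 of the 12 all mutants lay below all controls (background 3.71%). Reg1, a lectin-like protein made in acinar cells and in gut, did not follow the enzymes, at 6528, 4076 and 13284 FPKM in mutants 1 to 3 and 7946, 10551 and 14681 FPKM in controls 1 to 3. Its distance from the marker profile was 1.25. Reg2, Serpini2, Dmbt1 and Nr5a2 did not follow it closely either, at 2.01, 1.56, 1.28 and 0.987, while 4 of the 12 were among the 10 nearest genes above. Of 9 tested genes of granule secretion 0 passed (background 0.0221%), with a median of -0.03. Xbp1, a factor of secretory cells, lay at 171, 152 and 261.3 FPKM in mutants and 151, 190 and 253 FPKM in controls.

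On the duodenal side, Tmprss15, which encodes enteropeptidase, lay at 129, 121 and 136 FPKM in mutants 1 to 3, within the 179, 134 and 109 FPKM of controls 1 to 3. Cck (cholecystokinin) lay at 41.7, 62.1 and 45.4 FPKM in mutants, against 81.4, 70.6 and 75.6 FPKM in controls. Sct (secretin) lay at 79.7, 77.5 and 48.7 FPKM in mutants, against 143, 165 and 101 FPKM in controls. All mutants were below all controls in both hormones (background 3.71%). Of the 8 tested genes of this list 0 passed (background 0.0221%), and their median was -0.04. At an unadjusted p under 0.05, 3 were lower (background 1.63%). They were Cck, Sct and Cckar, and Cckar was also among the genes most like the acinar markers.

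Markers of other tissues next to the duodenum moved with the members in part. The 12 Brunner gland and stomach markers summed to 4956, 1226 and 159 FPKM in mutants 1 to 3 and to 2793, 8619 and 3148 FPKM in controls 1 to 3, so they too were lowest in mutant 3. Of their 9 tested genes 0 passed (background 0.0221%) and 8 had a negative change, where 54.8% of all genes without a filter did. The largest values were those of Tff2 and Gkn3. Gkn1, Gkn2 and Tff1 were high in control 2 alone, at 111, 207 and 136 FPKM. In the other libraries they reached at most 0.792, 1.28 and 2.64 FPKM, so their negative changes rest mainly on that library. The part of these markers in the result was not tested. The 10 enterocyte markers summed to 28436, 36802 and 15864 FPKM in mutants and 31420, 29411 and 13380 FPKM in controls. They were low in both libraries numbered 3, and 0 of 10 passed (background 0.0221%). The largest values there were those of Apoa1, Apoa4 and Fabp2, at 5191, 3924 and 2923 FPKM in mutant 3 and 3663, 2676 and 2992 FPKM in control 3. Alpi, Sis, Lct and Vil1 were also lowest of their groups in both. Anpep and Pdx1 were lowest in control 3 only, and Cdx1 was highest in both, at 80.0 and 70.2 FPKM. The 9 islet markers summed to 20.9, 11.4 and 12.2 FPKM in mutants and 17.5, 16.6 and 22.9 FPKM in controls, with 0 of 4 tested passing (background 0.0221%). Of these, Slc30a8, Nkx6-1 and G6pc2 were at 0 in every mutant and at most 0.0423 FPKM in controls, while Ins2 lay at 13.5, 1.39 and 2.36 FPKM in mutants and 8.67, 7.59 and 15.1 FPKM in controls. The 6 duct, 6 adipose and 6 liver markers summed to 754 to 900, 78.9 to 150 and 3.65 to 8.73 FPKM over all libraries. None of their 5, 2 and 3 tested genes passed (background 0.0221%). At this background a count of 0 in a short list says little about the list. Nearly all of the duct sum was Krt19, at 735 to 882 FPKM, and nearly all of the adipose sum Cidec, at 77.1 to 146 FPKM. The duct marker Onecut1 reached at most 0.0296 FPKM, and the adipose markers Adipoq and Plin1 at most 0.698 and 0.208 FPKM. These sums therefore do not measure the amount of duct or adipose tissue.

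**Figure D5:**
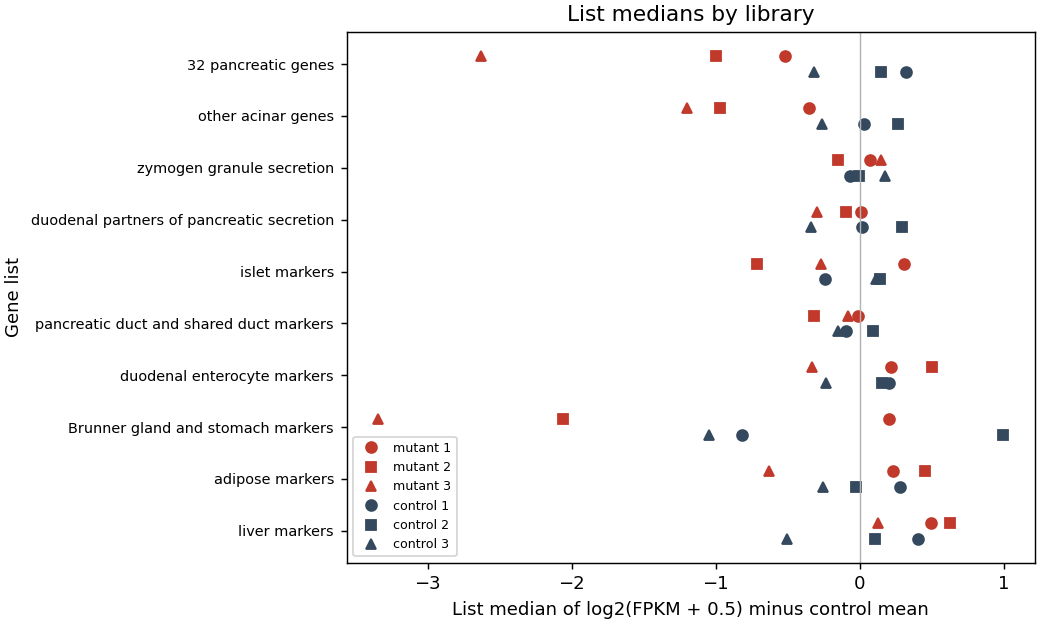
Median over the tested genes of each list (all 32 members in the top row) of log2(FPKM + 0.5) minus the control mean, 1 point per library, mutants (red) drawn above controls (dark). For the pancreatic genes mutants 1 to 3 lie at -0.52, -1.002 and -2.63 and controls 1 to 3 at 0.32, 0.15 and -0.32; the Brunner gland and stomach list is also lowest in mutant 3, at -3.35.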

How the data were processed

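The authors deposited FPKM per gene and per isoform for each library, made with Cufflinks per the file headers, together with a coverage signal per isoform. The submitters' processing notes also name CASAVA 1.8.2, TopHat, DESeq and mm9; options, strand and the treatment of reads with several matches are not given in the sources used here. A separate deposited table of the authors' own test holds mean normalized counts by group (a signal). It also holds the ratio of these means, the log2 of that ratio and the p-value, raw and adjusted, as deposited.

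Members were matched by name, and Amy2a5 is given by the copy of status OK. They, the gene lists and the rule for the genes named were chosen with earlier results of these data known. The rule gives all members, each list by its counts, and the 10 non-members nearest to the mean profile of Ctrb1, Cela1 and Pnlip. Genes named as predicted models, RIKEN clones or small RNAs could not enter these 10. List genes given with values, and members singled out for their spread, were chosen after their values were seen. 1 of the 10 is not reported here by name. A gene entered the main test if 3 libraries had an FPKM of 0.5 or more. Its log2(FPKM + 0.5) values were fitted in R 4.3.3 by limma 3.58.1, with a trended, robust prior (statmod 1.5.0). Two-sided p-values were adjusted by Benjamini-Hochberg over all 13596 genes, and the threshold was 0.05. The fit was tested on simulated data.

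Reads were rebuilt as coverage × (length − 210) / 101.5. The constants were fitted to make small values whole, and 93.9% of the 15064 values up to 20 reads came within 0.1 of a whole number. The ratio of FPKM to coverage then gave the depth. Windows of 100 bases were compared between GENCODE M1 transcripts. Summaries used Python 3.11.15, pandas 2.3.3, numpy 2.4.6 and matplotlib 3.10.9. Locus starts were raised by 1 to count from 1.

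Both groups carry the numbers 1 to 3 without a stated meaning. Deviations from the group means correlated at 0.265, 0.250 and 0.575 in same-numbered pairs, above the limit of 0.1 set for pairing. However, mutant 2 correlated with control 1 at 0.296 and mutant 1 with control 2 at 0.193. The check thus did not tell the numbers 1 and 2 apart, and it does not establish that same-numbered libraries are pairs.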

Additional observations from a re-analysis of the deposited data

How the results depend on the processing

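Blocking on replicate number gave 22 called genes and 0 called members, and so changed no member's call. Over all genes 3 were called in limma, against 1 without a filter, with TPM scaling or with upper quartile scaling, 0 to 63 when 1 library was left out, 186 without both libraries numbered 3 and 5 by limma-voom on rebuilt reads. No member was called under any setting run except 7 without both libraries numbered 3, a setting chosen after seeing the data, as was voom. Tested members whose groups lay apart numbered 14 (background 10.2%, without control 1) to 25 (background 6.54%, without mutant 1) when 1 library was left out, and the share of all genes that lay apart in this direction ran from 4.56% without mutant 2 to 21.2% without mutant 3. The carboxypeptidase share of the total was -0.759 percentage points different in mutants, -1.33 without the trypsinogens and 0.0260 without the trypsin inhibitor; that of the lipases and colipase was 2.43 points different, and 5.34 without the inhibitor. The uncalled log2 changes of Pnliprp2, Prss1, Ctrc and Amy1 changed sign in at least 1 alternative. No scaling moved the median of all genes by 0.1. With 3 libraries a group, and a few reads behind Ptf1a, Gm2663 and 1810009J06Rik in mutants, a member that was not called may still differ.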
